A study of Mus musculus with 2 samples.

Results

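The genes described here encode the surface proteins by which myoblasts recognise each other, adhere and fuse, together with the catenin that links cadherins to the cytoskeleton. They are Cdh15, Cdh2, Ctnnb1, Cdon, Boc, Neo1, Jam3, Ncam1, Vcam1 and Tmem8c, and were chosen by name for what is known of their proteins, by a rule that uses no measured value, although earlier results of these data were known. These 10 genes, of 20128 gene symbols in the deposited table, have 14 of its 24165 RefSeq entries, since 7 of them have 1 entry and 3 have several. The samples were 2 replicate GRO-seq libraries of untreated C2C12 myoblasts, an established mouse line able to fuse into myotubes, harvested on plates at 80% confluency in growth medium. In GRO-seq, nuclei are isolated, engaged RNA polymerases run on with bromouridine, and the labelled nascent RNA is sequenced. The study used it to find which genes were transcribed in these cells, and the series holds no differentiated or treated group.

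The deposited measurement is gene activity in RPKmM, the reads on the sense strand of the gene body per kilobase of mappable bases, scaled to the number of reads sequenced. It is a density per length, so activities of different genes can be set side by side. An entry has the word Inactive in place of a value where its density did not pass the authors' comparison with gene deserts. The authors pooled the 2 libraries into 1 value per entry, so no value below has a standard deviation or a test, and no difference between genes was set against replicate error. Neither the number of reads nor the mappable length of each entry is in the table, so the reads behind a value are unknown and no counting interval was computed. Intervals given for ratios cover only the rounding of the deposited values to 2 decimals, that is at most 0.005 RPKmM either way.

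Myoblasts that leave the cell cycle align, adhere through cadherins and immunoglobulin-type adhesion molecules, and then merge their membranes into multinucleated fibres. Cadherins bind cadherins of the neighbouring cell and hold beta-catenin and other catenins at their cytoplasmic tails. Cdon, Boc and Neo1 are receptors of the immunoglobulin superfamily that sit beside cadherins in promyogenic complexes, and Tmem8c, also called myomaker, is the muscle-specific membrane protein that drives fusion itself.

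All 10 genes were listed as active in C2C12 myoblasts in growth medium, and their activities spanned 51.7-fold (51.0 to 52.5 with rounding) from Ctnnb1 to Boc. Of their entries, 14 of 14 were active, where 70.2% of all entries and 68.7% of all gene symbols were. At or above the median of the 16957 active entries, 0.87 RPKmM, lay 10 of the 14 entries, against 35.2% of all entries, and 7 of the 10 genes by their highest entry, against 34.5% of all symbols. At or above the upper quartile of active entries, 1.99 RPKmM, lay 6 of the 10 genes, against 17.3% of all symbols. The median over the 14 entries was 3.6 RPKmM, 4.14 times that of active entries. These counts describe 10 named genes and were not tested.

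**Figure D1:**
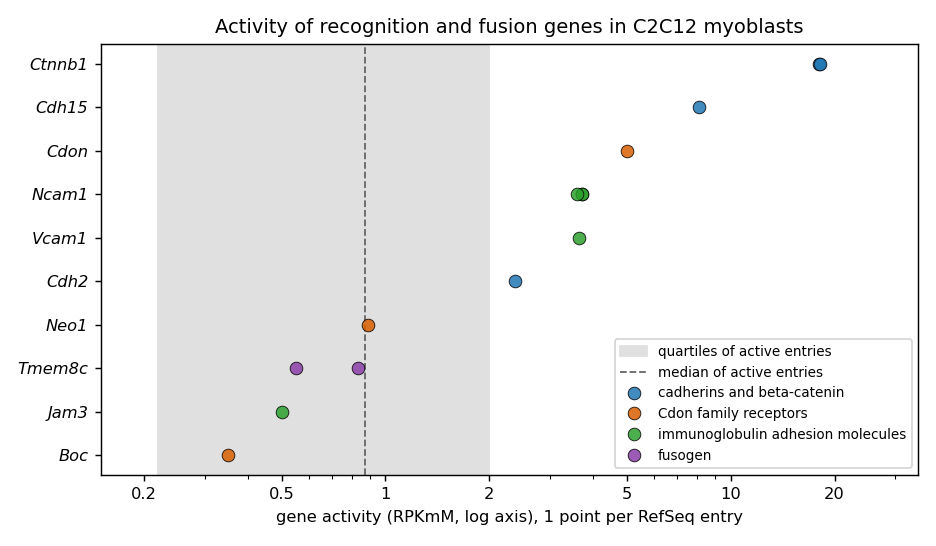
Gene activity (RPKmM, log axis) of the 10 genes, 1 point per RefSeq entry, coloured by role; the grey band spans the quartiles of all active entries and the dashed line is their median. Ctnnb1, at 18 and 18.1 RPKmM, lies farthest right, 6 genes lie to the right of the band, and Jam3 and Boc lie in its lower part with both entries of Tmem8c below the median.

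The RefSeq start regions of 4 members are printed first, as windows of the RefSeq promoter table, since they differ widely in base composition. Each window holds 250 bases before and 50 after the RefSeq transcription start, is written from 5′ to 3′ on the strand of the gene in lower case, and has every CANNTG, the E-box letters read by muscle basic helix-loop-helix factors, in capitals. The table is of build GRCm38.p6, and each window was found at exactly 1 place in mm9, whose coordinates are given. Cdh15 lies at chr8:125372024-125372323 on the plus strand, Cdon at chr9:35259411-35259710 on the plus strand, Ctnnb1 at chr9:120842268-120842567 on the plus strand and Neo1 at chr9:58884199-58884498 on the minus strand.
Cdh15: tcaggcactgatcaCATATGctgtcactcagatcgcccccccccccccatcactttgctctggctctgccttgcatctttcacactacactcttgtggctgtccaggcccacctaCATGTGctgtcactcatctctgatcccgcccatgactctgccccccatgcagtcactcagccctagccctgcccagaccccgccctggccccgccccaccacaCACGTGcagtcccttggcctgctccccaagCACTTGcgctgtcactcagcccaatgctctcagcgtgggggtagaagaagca
Cdon: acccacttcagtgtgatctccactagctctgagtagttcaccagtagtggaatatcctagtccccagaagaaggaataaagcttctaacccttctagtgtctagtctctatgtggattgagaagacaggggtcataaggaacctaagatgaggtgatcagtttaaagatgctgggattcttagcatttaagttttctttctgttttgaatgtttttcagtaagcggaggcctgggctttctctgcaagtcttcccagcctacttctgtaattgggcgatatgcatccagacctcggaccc
Ctnnb1: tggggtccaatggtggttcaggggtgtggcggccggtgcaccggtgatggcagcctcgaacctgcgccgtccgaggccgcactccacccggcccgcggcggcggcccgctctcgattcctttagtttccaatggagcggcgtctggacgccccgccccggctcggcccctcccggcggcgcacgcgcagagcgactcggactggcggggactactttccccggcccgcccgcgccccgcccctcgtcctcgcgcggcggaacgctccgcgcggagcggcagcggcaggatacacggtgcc
Neo1: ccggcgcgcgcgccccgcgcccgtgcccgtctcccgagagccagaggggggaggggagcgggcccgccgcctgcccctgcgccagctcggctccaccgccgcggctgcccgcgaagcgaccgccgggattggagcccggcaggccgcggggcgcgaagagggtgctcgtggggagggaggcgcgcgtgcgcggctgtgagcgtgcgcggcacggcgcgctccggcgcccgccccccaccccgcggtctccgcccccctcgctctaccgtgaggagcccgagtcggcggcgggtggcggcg
No window is printed here for Boc, Cdh2, Jam3, Ncam1, Tmem8c and Vcam1.

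The window of Cdh15 held 4 matches to CANNTG and those of Cdon, Ctnnb1 and Neo1 held 0. Counted on the strand of the gene from the RefSeq start, they began at -236, -135, -32 and -2, and stand in capitals in the sequence above. CANNTG reads the same on both strands, and 68.0% of the 15199 symbols with a window had at least 1 match. Of the forms of this motif, the palindrome CAGCTG was in none of the 4 windows, against 16.4% of all windows with a symbol in the table. The form CAGGTG, searched on both strands, was in none of the 4 windows either, against 19.9% of all windows. A match is a description of letters, and the factors that bind there were not measured.

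Base composition separated the windows of Ctnnb1 and Neo1 from those of Cdon and Cdh15, but the windows are not placed alike. Those printed for Ctnnb1 and Neo1 lie at the first annotated start of a coding transcript, and those of Cdon and Cdh15 lie downstream of it. The window of Neo1 was 82.7% G and C and that of Ctnnb1 75.3%, with ratios of observed to expected CpG of 1.05 and 1.08. The window of Cdh15 was 61.3% G and C, but its CpG ratio was 0.290, since it held 7 CpG. The window of Cdon was 44.7% G and C with a CpG ratio of 0.201. For comparison, the median of all windows was 57.7% G and C with a CpG ratio of 0.641, and 68.9% of windows of active genes, against 18.9% of those of inactive genes, had a ratio over 0.6. Cdon had 5.02 RPKmM and Neo1 0.89 RPKmM, but the window of Cdon belongs to the later of its annotated starts, at 35259661. The sequence before its earlier start, at 35229182, is not described. Which start the entry of Cdon follows is not given, so its activity was not set against the CpG of this window. The window of Cdh15 has its RefSeq start at 125372274, downstream of the annotated start at 125371866. The sequence before that annotated start is not described either. A second RefSeq start of Ctnnb1, at 120842696, gave a window of 75% G and C with a CpG ratio of 1.21 and 0 E-box matches. It held 1 match to TATAAA, a form of the TATA box, which 10.2% of all windows held on either strand.

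Cadherins and beta-catenin were the most active role group, with a median of 13.04 RPKmM over their 4 entries, in which Ctnnb1 counts 2 times, and of 8.08 RPKmM over the 3 genes. Ctnnb1, which encodes beta-catenin, a cadherin linker and the effector of canonical Wnt signalling, had 18 RPKmM in entry NM_007614 and 18.1 RPKmM in entry NM_001165902. The higher entry lay at the 98.7 percentile of active entries and at 20.8 times their median. Entries of 1 gene can share reads, so its 2 entries are not taken as independent measures. In mm9 the gene spans chr9:120838334-120869625 on the plus strand.

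Cdh15, which encodes M-cadherin, the cadherin found mainly in skeletal muscle and satellite cells, had 8.08 RPKmM in its single entry, NM_007662. This is the 96.1 percentile of active entries and 9.29 times their median, and places Cdh15 second among the 10 genes. Its span in mm9 is chr8:125371866-125391297 on the plus strand, and its RefSeq window printed above lies within that span, downstream of the annotated start. Cdh2, which encodes N-cadherin, shared by muscle, neural and mesenchymal cells, had 2.38 RPKmM in entry NM_007664, the 79.7 percentile. Cdh15 was 3.39 times as active as Cdh2 (3.39 to 3.40 with rounding). The span of Cdh2 in mm9 runs from 16747386 to 16967755 on chromosome 18, minus strand. Ctnnb1 in turn was 2.24 times as active as Cdh15.

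Most other cadherin genes were Inactive. Of 17 other classical and related cadherin genes, 7 were active (41.2%, against 68.7% of all symbols) and 10 were Inactive, namely Cdh3, Cdh4, Cdh5, Cdh7, Cdh8, Cdh9, Cdh12, Cdh19, Cdh20 and Cdh22. Among the active ones the median was 0.3 RPKmM, and Cdh18 at 1.99, Cdh13 at 1.79 and Cdh24 at 0.57 RPKmM came first. Cdh15 and Cdh2 therefore stood first and second of 19 cadherin genes. Cdh15 was 4.06 times as active as Cdh18, while Cdh2 exceeded Cdh18 by only 1.20 times. Cdh1, which encodes the epithelial E-cadherin, was listed at 0.02 RPKmM.

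Among the partners of beta-catenin at the cadherin tail, Ctnnd1 was the most active. Of 13 genes for catenins and cadherin linkers, 10 were active (76.9%, near the 68.7% of all symbols) with a median of 3.125 RPKmM, and 8 lay at or above the median of active entries, against 34.5% of all symbols. Ctnnd1, the catenin that binds nearer the membrane and steadies cadherins at the surface, had 21.88 and 21.79 RPKmM in its 2 entries, 1.21 times Ctnnb1. Lima1, an actin-bundling linker, had 8.59 and 3.9 RPKmM, and Vcl, which encodes vinculin, had 7.66 RPKmM. Ctnnb1 was 3.09 times as active as Ctnna1, the alpha-catenin that couples beta-catenin to actin, which had 5.86 RPKmM. It was 3.82 times as active as Jup, the gene of plakoglobin, a close relative of beta-catenin, which had 4.74 RPKmM. Ctnna2, Ctnna3 and Ctnnd2, the catenins best known from the nervous system and the heart, were Inactive.

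**Figure D2:**
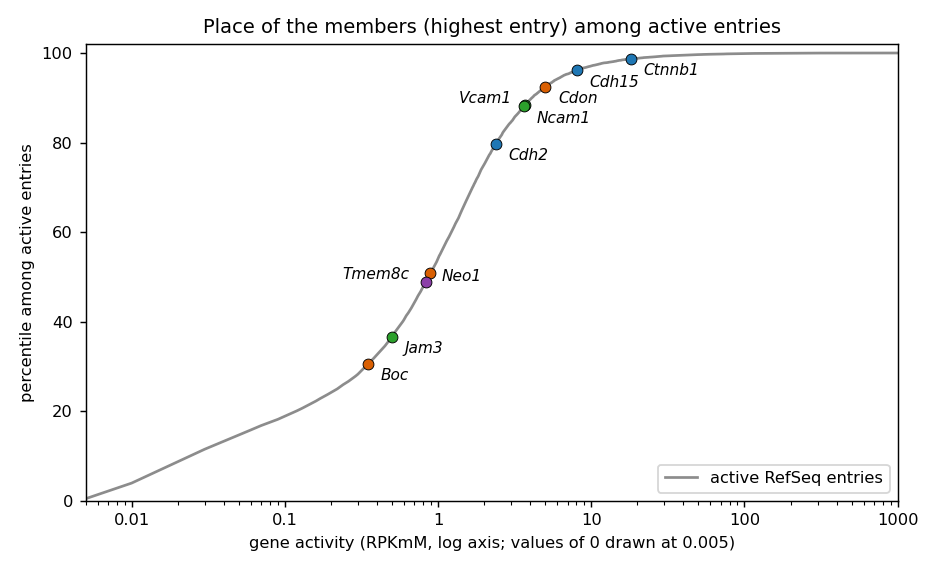
Percentile among active entries against gene activity (RPKmM, log axis), with the highest entry of each of the 10 genes as a point on the curve of all active entries. Ctnnb1, Cdh15 and Cdon lie highest at 98.7, 96.1 and 92.4, Ncam1 and Vcam1 fall on almost one point at 88.4 and 88.0, and Boc is lowest at 30.7.

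The receptors Cdon, Boc and Neo1 differed more among themselves than any other role group. Cdon, which encodes a co-receptor of hedgehog ligands that also binds N-cadherin and M-cadherin and signals to MyoD-dependent transcription, had 5.02 RPKmM in entry NM_021339, the 92.4 percentile of active entries. Boc, its closest relative and partner in the same complexes, had 0.35 RPKmM in entry NM_172506, the lowest value of the 10 genes, and 69.2% of active entries lay above it. Neo1, which encodes neogenin, a receptor of netrins and repulsive guidance molecules, had 0.89 RPKmM in entry NM_001042752, next to the median of active entries. Cdon was 14.3 times as active as Boc (14.1 to 14.6 with rounding) and 5.64 times as active as Neo1. Neo1 was 2.54 times as active as Boc (2.49 to 2.59). In mm9, Cdon spans chr9:35228713-35315236 on the plus strand, Neo1 chr9:58722486-58884248 on the minus strand and Boc chr16:44485158-44559010 on the minus strand.

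The genes of their ligands reached at most 1.03 RPKmM, and the co-receptor Gas1 was the most active of the list of ligands and co-receptors. Of 20 ligand and co-receptor genes, 16 were active (80%, against 68.7% of all symbols), with a median of 0.49 RPKmM. At or above the median of active entries lay 6 of the 20, a share near the 34.5% of all symbols. Gas1, a membrane-anchored hedgehog co-receptor that acts with Cdon and Boc, had 6.33 RPKmM, 1.26 times Cdon and 18.1 times Boc. Unc5b, a netrin receptor, had 3.1 RPKmM and Smo, the hedgehog signal transducer, 1.99 RPKmM. Ptch1, the hedgehog receptor with which Cdon and Boc associate, had 0.96 RPKmM, 2.74 times Boc.

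Ntn1, which encodes a netrin bound by neogenin, had 0.88 RPKmM, and Neo1 exceeded it by 1.01 times (1 to 1.02 with rounding), so their order is not resolved. Rgmb, at 1.03 RPKmM, was 2.29 times as active as Rgma, at 0.45 RPKmM, both ligands of neogenin. Shh was listed at 0.01 RPKmM, where 1 rounding step is as large as the value, so the ratio of Cdon to Shh, 502, could lie anywhere from 334 to 1005. Dhh, another hedgehog ligand, was Inactive, as were the netrin receptors Dcc, Unc5a and Unc5d.

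The intracellular effectors of Cdon and Neo1 were all active, 13 of 13, against 68.7% of all symbols. Their median was 1.98 RPKmM, and 10 lay at or above the median of active entries, against 34.5% of all symbols. Cdc42, the small GTPase activated downstream of Cdon, had 5.29 and 5.43 RPKmM. Bnip2, a scaffold that joins Cdon to Cdc42, had 2.48 RPKmM, and Spag9, the scaffold that joins Cdon to stress-activated kinases, had 1.98 and 1.87 RPKmM. Ptk2, the focal adhesion kinase that acts below neogenin, had 3.03 and 3.09 RPKmM. The kinase gene Mapk14, which acts downstream of Cdon in differentiation, had 2.42 and 2.47 RPKmM. Cdon exceeded both scaffolds in activity and was close to Cdc42, whereas Boc was below each of these genes. Boc was above 2 other genes of the list, Map2k6 at 0.29 and Mapk13 at 0.01 RPKmM.

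**Figure D3:**
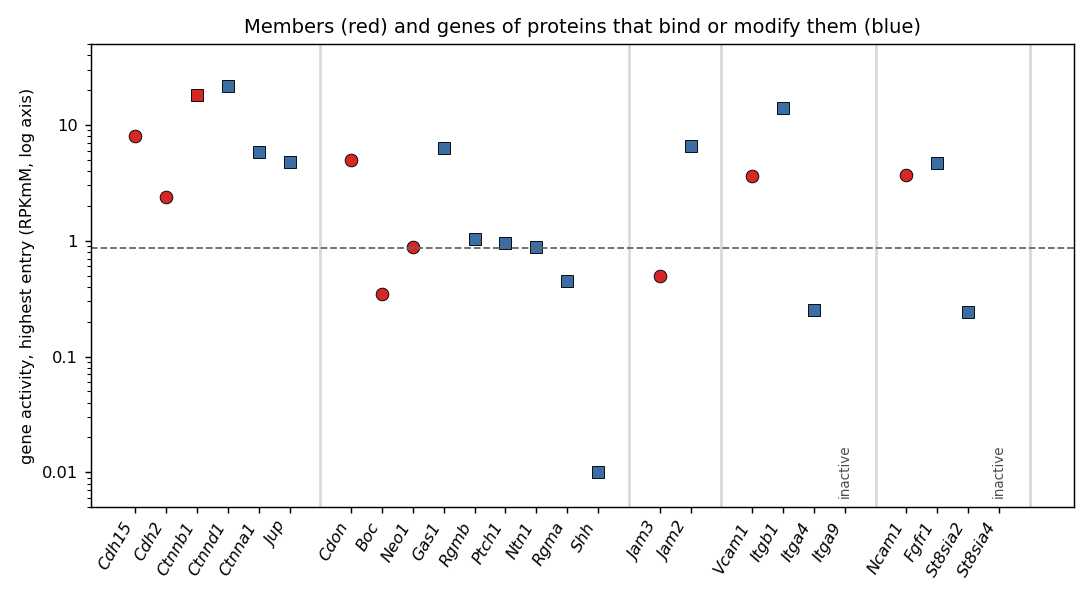
Gene activity (RPKmM, log axis, highest entry) of the members in red and of genes whose proteins bind or modify them in blue, with squares for Ctnnb1 and the blue genes; grey lines part the role groups and the dashed line is the median of active entries. Cdon and Gas1 stand above Boc, Jam2 stands 13.1-fold above Jam3, Itga4 lies far below both Vcam1 and Itgb1, and Itga9 and St8sia4 were Inactive.

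Among the immunoglobulin-type adhesion molecules, Ncam1 and Vcam1 had almost equal activities and Jam3 was well below both. Ncam1, the neural cell adhesion molecule that is also a surface marker of myogenic cells, had 3.72 RPKmM in entries NM_001311065 and NM_001081445 and 3.58 RPKmM in entry NM_010875, a spread of 1.04-fold between entries of the gene. Vcam1, an adhesion molecule of satellite cells and activated endothelium that binds an integrin on the apposed cell, had 3.63 RPKmM in entry NM_011693. The value of Vcam1 thus lies between the entries of Ncam1. The ratio of Ncam1 to Vcam1 was 1.02 with the highest entry of Ncam1 and 0.986 with the lowest, so their order is not resolved. Jam3, a junctional adhesion molecule required for fusion in other vertebrates, had 0.5 RPKmM in entry NM_023277, the 36.7 percentile of active entries. Ncam1 was 7.44 times as active as Jam3 (7.36 to 7.53 with rounding), and Vcam1 was 7.26 times as active (7.18 to 7.34). In mm9, Ncam1 spans chr9:49310257-49607027, Vcam1 chr3:115812938-115832606 and Jam3 chr9:26904969-26963003, all on the minus strand.

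The binding partners of these proteins did not share their order. Jam2, which encodes the partner that Jam3 binds on the apposed cell, had 6.54 RPKmM and was 13.1 times as active as Jam3 (12.9 to 13.2 with rounding). The integrin that binds Vcam1 pairs the products of Itga4 and Itgb1. Itga4 had 0.25 RPKmM, so Vcam1 was 14.5 times as active, and Itgb1, whose product joins many other alpha chains, had 13.99 RPKmM. Itga9, whose product also binds Vcam1, was Inactive in both of its entries. Of the enzymes that add polysialic acid to Ncam1, St8sia2 had 0.24 RPKmM, with Ncam1 at 15.5 times its activity, and St8sia4 was Inactive. Fgfr1, a receptor that Ncam1 can engage, had 4.72 RPKmM. Over the whole list of 23 partners and relatives, 16 were active (69.6%), near the 68.7% of all symbols, and Chl1, Icam1, Itgam, Itgax and Ncam2 were the other Inactive genes.

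Tmem8c, the gene of myomaker, was active in these myoblasts at or below the middle of active entries. Its entry NM_001159602 had 0.83 RPKmM and its entry NM_025376 had 0.55 RPKmM, the 48.8 and 38.6 percentiles. The 1.51-fold gap between them is the widest within a member gene, against 1.04 for Ncam1 and 1.01 for Ctnnb1. The gene spans chr2:26917156-26927699 on the minus strand in mm9, and its annotated coding transcripts start at 26927699 and 26923388. Which of them each entry follows is not given in the table. Its body from 1 kb after the start is 9.54 kb, the shortest of the 10 genes, and its activity over that length comes to 7.92 RPM, that is reads at the same scaling, if every base is mappable. For the other members the same product ran from 25.5 RPM for Boc to 1043 RPM for Ncam1, so on this reckoning the value of Tmem8c rests on the fewest reads.

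Tmem8c nevertheless stood above its relatives. Tmem8 had 0.07 RPKmM and Tmem8b had 0.05 RPKmM, both widely expressed relatives without a known part in fusion, so that Tmem8c was 11.9 times (11 to 12.8 with rounding) and 16.6 times (15 to 18.6) as active by its higher entry. By its lower entry it was 7.86 and 11 times as active. The gene Gm7325, which encodes the small fusion protein that acts with myomaker, was not analysed here. Against Myog, the gene of the differentiation factor myogenin that activates fusion genes, the ratio of Tmem8c was 0.347 by its higher entry and 0.230 by its lower entry. Myog had 2.39 RPKmM, the same value as Myod1, and whether some of the cells had begun to differentiate was not tested.

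The whole order was Ctnnb1, Cdh15, Cdon, Ncam1, Vcam1, Cdh2, Neo1, Tmem8c, Jam3 and Boc. Steps between successive genes were widest from Cdh2 to Neo1, at 2.67-fold, and from Ctnnb1 to Cdh15, at 2.24-fold. They were narrowest from Ncam1 to Vcam1, at 1.02-fold, and from Neo1 to Tmem8c, at 1.07-fold. The median of active entries falls between Neo1 and Tmem8c.

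**Figure D4:**
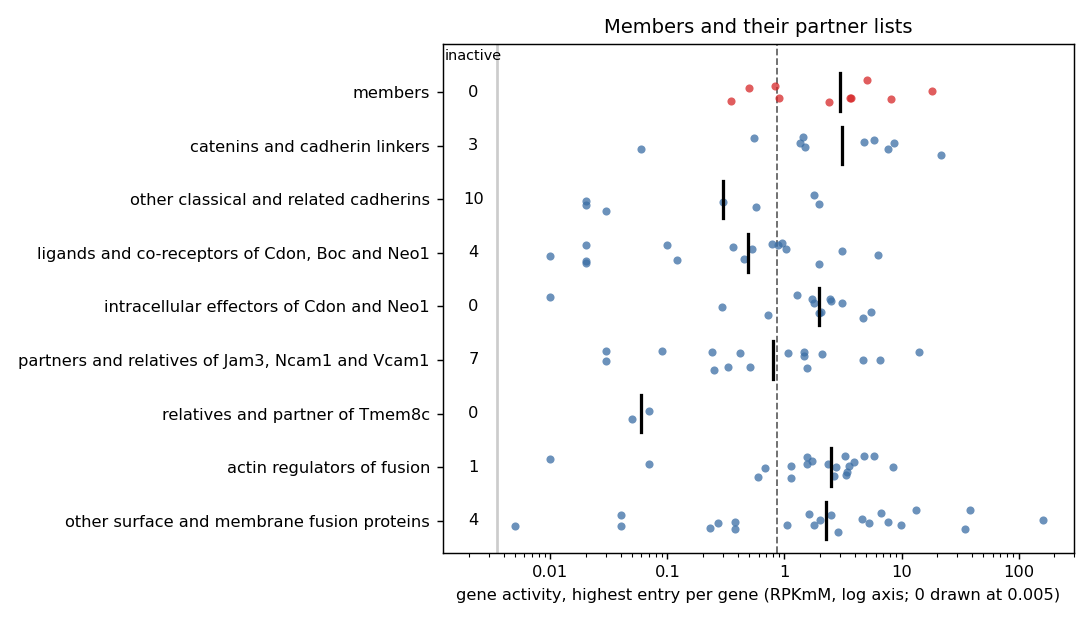
Gene activity (RPKmM, log axis, highest entry per gene) of the members in red and of the genes in each list in blue, 1 point per active gene, spread vertically only to part them; black bars are medians of active genes, the dashed line is the median of active entries, and numbers at the left count Inactive genes. Members have 0 Inactive genes and other cadherins have 10.

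By position, 5 of the 10 genes (Ctnnb1, Cdon, Ncam1, Neo1 and Jam3) lie on chromosome 9, which holds 5.60% of the 17421 symbols of the table with a single annotated position. Those 5 span the range from 18.1 to 0.5 RPKmM, and active genes of that chromosome had a median of 0.75 RPKmM. The nearest gene of the table with an annotated position, on each side of each member, gave the 19 neighbours described. Of these, 14 were less active than the member, 3 of them Inactive, and 5 were more active. A gene high in the order has mostly less active genes beside it wherever it lies, so nothing is read from these counts.

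The more active neighbours belonged to Boc, Jam3 and Neo1. Boc lay between Gtpbp8 at 1.12 and Spice1 at 0.79 RPKmM, and Jam3 between Igsf9b at 1.21 and Ncapd3 at 1.26 RPKmM. Neo1 lay next to Adpgk at 3.59 RPKmM and Hcn4, which was Inactive. Cdh15 lay between Acsf3 at 0.38 and Ankrd11 at 3.08 RPKmM, and Ctnnb1 between Rpl14 at 1.42 and Trak1 at 2.27 RPKmM. Tmem8c, although below the median of active entries, exceeded Adamtsl2 at 0.01 and Slc2a6 at 0.09 RPKmM.

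Around the remaining members the neighbours were lower throughout. Cdon lay between Rpusd4 at 2.67 RPKmM and Ddx25, which was Inactive, and Cdh2 between Gm15328 at 0.02 RPKmM and Chst9, which was Inactive. Vcam1 lay upstream of Extl2 at 0.81 RPKmM, and Ncam1 between Pts at 1.76 and Ttc12 at 0.43 RPKmM. The 5 upstream neighbours described that lie on the same strand were at least 30.1 kb away, the closest being Acsf3 before Cdh15. Genes overlapping a member on the opposite strand were Ulk4 at 0.1 RPKmM and 4930593C16Rik, which was Inactive, for Ctnnb1, and Gm11149 at 0.01 RPKmM for Ncam1.

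**Figure D5:**
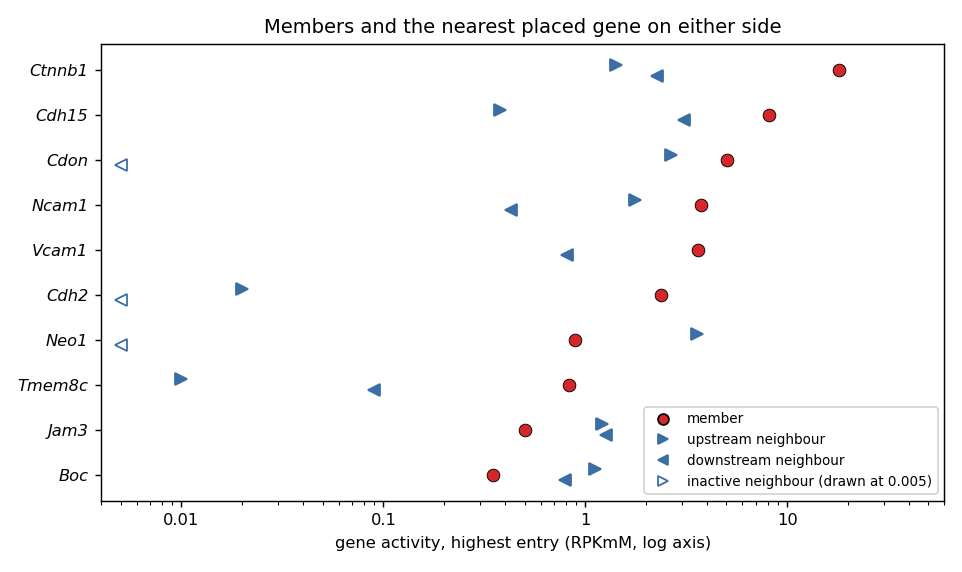
Gene activity (RPKmM, log axis, highest entry) of each member as a red point and of the nearest gene of the table upstream and downstream as blue triangles, with open triangles at 0.005 for Inactive genes. All red points from Ctnnb1 down to Cdh2, and that of Tmem8c, lie to the right of the triangles drawn for them, while those of Jam3 and Boc lie to the left of both.

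The identity of the cells was checked against marker genes. Of 7 listed myoblast markers all 7 were active, against 68.7% of all symbols, with Des at 72.45, Myf5 at 5.03, Myod1 at 2.39, Myog at 2.39, Met at 1.86 and Pax7 at 0.55 RPKmM, and with Pax3 listed at 0. Pax7 and Pax3 lay below the median of active entries. Of 12 listed markers of endothelial, epithelial, blood and neural cells, 4 were active (33.3%, against 68.7% of all symbols), namely Tubb3 at 6.01 RPKmM and Pecam1, Tek and Cd3e at 0.01 RPKmM each. Cdh5, Epcam, Krt8, Krt18, Ptprc, Sox10, Rbfox3 and Snap25 were Inactive. Endothelial cells also use Vcam1 and neural cells also use Cdh2, so both genes are not specific to myoblasts. The samples were of an established line, and the presence of other cells was not tested beyond these markers.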

How the data were processed

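GRO-seq libraries of 2 replicates of untreated C2C12 myoblasts were sequenced by the authors, mapped to mm9 with Bowtie2 after base calling with CASAVA 1.8, as their processing notes name these tools, and restricted to uniquely mapped reads. Reads that failed were shortened and mapped again, reads at rRNA and tRNA repeats were discarded, and the replicates were pooled. The authors deposited 1 table with another unit than plain RPKM: RPKmM, a read density on the sense strand from 1 kb after the start to the end of each RefSeq transcript, per kilobase of mappable bases and scaled to the number of reads. Removal of repeats and of reads that map to several places can leave part of a gene uncounted, pooling hides variation between libraries, and entries of a gene that overlap share reads.

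Rows were taken by gene symbol, with every RefSeq entry. Percentiles are the share of active entries with a lower value, with ties given their mid-rank, and a gene with several entries is given by its highest one. The genes named are the members, and in each list the most active, the Inactive and the direct binding partners of members, with the nearest neighbours, some of which are not reported here. Cdh1, Map2k6, Mapk13, Mapk14, St8sia2 and the less active marker genes were added to these once their values had been seen. The members, lists and rules were chosen with earlier results of these data known, although the rule for the members uses gene names only. No p-value was computed, because genes are not replicates. Positions came from GENCODE vM1 and the mm9 sequence (NCBIM37); 86.6% of symbols had 1 position. Promoter windows came from RefSeq, for 4 of the 10 members. The calculation of percentiles was tested on simulated data. Python 3.11.15, numpy 2.4.6, pandas 2.3.3 and matplotlib 3.10.9 were used. Alternatives were 1 entry per gene, activity minimums of 0.01, 0.1 and 1, pseudocounts of 0.01 and 0.1, percentiles among all entries and, chosen after seeing the data, the upper quartile and the lowest or single entry for some ratios and medians.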

Additional observations from a re-analysis of the deposited data

How the results depend on the processing

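Of 84 alternative values, 73 stayed within 1.5 times the reported value, or within 10 points for a percentile, 10 moved and 1 reversed. Some of the 73 could not change, so this count is no measure of how robust the results are. Examples are the lowest entry for genes that have 1 entry, and Inactive entries counted as 0 where all member entries were active. With Inactive entries ranked lowest among all entries, the percentiles rose to 51.3 for Boc, 55.6 for Jam3, 64.1 for Tmem8c and 65.5 for Neo1, because Inactive entries are then counted below them. With an activity of at least 0.1 RPKmM required, 4 of the other cadherins and 0 of the relatives of Tmem8c were active, in place of 7 and 2. With the lowest entry per gene, the ratio of Ncam1 to Vcam1 turned to 0.986, and those of Tmem8c to Tmem8, Tmem8b and Myog fell to 7.86, 11 and 0.230, the last 3 chosen after seeing the data. With 1 entry per gene, also chosen after seeing the data, the median of cadherins and beta-catenin was 8.08 RPKmM. Results without each replicate in turn were not run, and no paired analysis was possible because the table holds only pooled values. Values near 0.01 RPKmM are limited by rounding, and the variation between cultures of C2C12 myoblasts is not known from these values.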

Other observations

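The machinery that remodels actin at the site of fusion was largely active in these myoblasts. Of 21 actin regulators, 20 were active (95.2%, against 68.7% of all gene symbols), 16 lay at or above the median of active entries, against 34.5% of all symbols, and their median was 2.5 RPKmM. Crk, an adaptor that recruits activators of Rac, had 8.46 RPKmM, and Actr2 and Actr3, subunits of the complex that branches actin filaments, had 5.76 and 4.79 RPKmM. Dock1, an activator of Rac needed for myoblast fusion, had 0.68 RPKmM, close to Neo1 and Tmem8c, and its relative Dock5 had 1.13 RPKmM. Elmo1, a partner of Dock1, was listed at 0.01 RPKmM in both entries, while Elmo2 reached 1.14 RPKmM. Wasf3 was Inactive.

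Other surface and membrane proteins with a part in fusion ranged more widely than the 10 genes. Of 26 such genes, 22 were active (84.6%, against 68.7% of all gene symbols), 15 lay at or above the median of active entries, against 34.5% of all symbols, and the median was 2.27 RPKmM. Anxa1, a membrane-binding annexin, had 161.77 RPKmM, Lgals1, which encodes a galectin, 38.51 RPKmM and Marcks, a membrane-bound kinase substrate, 34.62 RPKmM, all above Ctnnb1. Of the ferlins, which act in membrane merging and repair, Myof had 5.3 RPKmM and Dysf 0.38 and 0.37 RPKmM. The receptor gene Adgrb1 was listed at 0, and Adgrb3, Il4, Nphs1 and Stab2 were Inactive. Dock1, Dock5, Elmo1, Elmo2, Myof, Dysf and Adgrb1 were named after their values were seen.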
